A study of Mus musculus with 6 samples.

Results

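The genes described here are 10 receptors by which blood cells sense chemoattractants, lipid mediators and small metabolites: Fpr1, Fpr2, C5ar1, C5ar2, C3ar1, Ltb4r1, Ptafr, Hcar2, Gpr84 and P2ry2. They were taken by gene symbol, and all 10 were found among the 30733 distinct symbols of the tables. Transcript levels came from RNA sequencing of bone marrow cells of wild-type mice aged 12 months, labelled as hematopoietic stem cells (HSCs, the cells from which all blood lineages arise). The cells had been sorted into a fraction with high surface MHC class II (MHCII_hi) and a fraction with low surface MHC class II (MHCII_lo), each with 3 libraries. Both fractions share genotype, tissue, age and cell label, and differ in the sorted class II level. The sources used here name no stain or gate and no count of animals, and do not say if replicate libraries stem from different mice, so a p-value reflects library-to-library spread that may be technical.

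All 10 are receptors with 7 membrane-spanning helices. Fpr1 and Fpr2 sense formylated peptides of bacteria and mitochondria, and C5ar1, C5ar2 and C3ar1 bind the anaphylatoxins, the small fragments cut from complement proteins. Ltb4r1 and Ptafr bind the lipids leukotriene B4 and platelet-activating factor, Hcar2 and Gpr84 sense metabolites and fatty acids, and P2ry2 senses extracellular nucleotides. In mature neutrophils and monocytes, most of these receptors signal through inhibitory G proteins and steer movement toward injured or infected tissue, after which kinases and arrestins switch them off.

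Levels are FPKM (fragments scaled to transcript length and to the mapped fragments of the library), a unit inferred from the values. Log2 fold changes are MHCII_hi minus MHCII_lo of log2(FPKM + 1), so that changes of low genes come out too small. Genes averaging 1 FPKM or more across all 6 libraries were tested with limma. The 6 tables summed to between 327291 and 346595 FPKM over distinct symbols, with 21144 to 21510 genes above 0, and the read depth is unknown. Libraries of 1 group correlated at 0.991 to 0.993 across tested genes, and libraries of different groups at 0.945 to 0.947. Of the transcripts behind the sort, Cd74, H2-Ab1, H2-Aa and H2-Eb1 were all called higher in MHCII_hi, by 1.37 to 2.51 times. Of the genes that define stem cells, Procr, Slamf1, Mecom, Fgd5 and Hoxb5 were under 1 FPKM in all 6 libraries, while Kit averaged 13.9 ± 0.318 FPKM in MHCII_hi and 14.3 ± 0.175 FPKM in MHCII_lo (SD, n = 3 each). A list of 20 neutrophil markers took 16.1 to 16.2% of summed FPKM in MHCII_hi and 2.87 to 2.90% in MHCII_lo. In such bulk samples, fewer cells of a type and less RNA per cell cannot be told apart.

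Transcripts of 8 of the 10 receptors were higher in MHCII_hi, by 1.80 to 11.7 times in mean FPKM, and P2ry2 and C3ar1 did not pass the test or were too low for it. Values of the 2 fractions did not overlap for these 8, as for 67.6% of all tested genes in one direction or the other. Fpr1, C5ar1 and Fpr2 rose most, followed at a distance by C5ar2, Gpr84, Ptafr, Ltb4r1 and Hcar2. Summed over the set, the receptors came to 346 ± 3.29 FPKM in MHCII_hi and 87.5 ± 0.746 FPKM in MHCII_lo (SD, n = 3 each), a ratio of 3.96. Over all 12037 tested genes, 20.4% were called higher in MHCII_hi and 40.6% lower at a limma adjusted p under 0.05, or 60.9% in either direction. Higher calls were 33.4% of these calls, and 49.8%, 41.2% and 52.8% after median-ratio scaling, quantile normalization and a total without neutrophil markers, with the same 8 receptors called. A call at least 2-fold higher on the log2(FPKM + 1) scale was made for 3.7% of tested genes, and Fpr1, C5ar1, Fpr2, C5ar2, Gpr84 and Ptafr were among these. The median log2 fold change was 1.16 over the 9 tested receptors and −0.12 over all tested genes. C5ar2 reached the limit for testing only through its MHCII_hi libraries, so it had to differ to be tested, and C3ar1 was under the limit. The size of the change of low receptors depended on the pseudocount: C5ar2 had a log2 fold change of 2.16 with 0.1 and 0.44 with 5 in place of 1, and with 5 Ptafr had 0.65 and Gpr84 0.62.

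**Figure D1:**
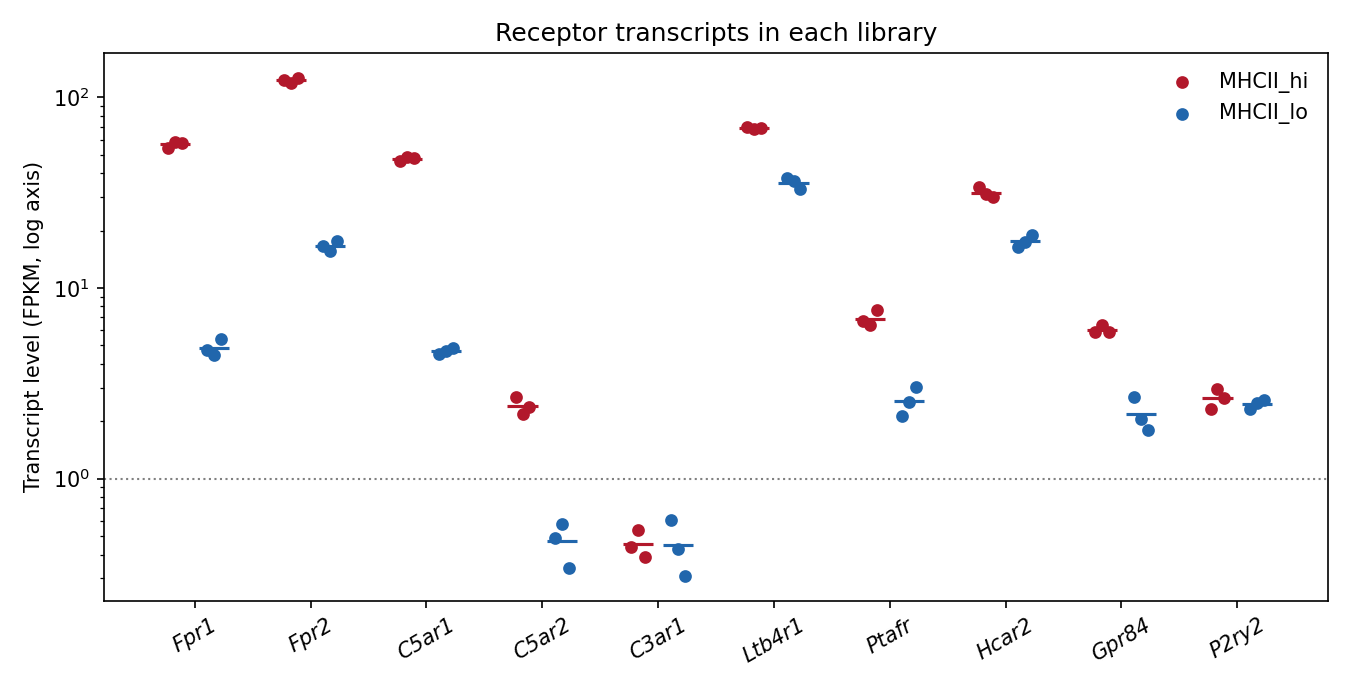
Transcript level in FPKM (log axis) of each receptor in the 3 MHCII_hi libraries (red, left) and the 3 MHCII_lo libraries (blue, right), with short lines at group means and a dotted line at 1 FPKM. The groups stand wholly apart for 8 receptors and overlap for C3ar1 and P2ry2.

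The formyl peptide receptors held the highest level of the set in MHCII_hi, that of Fpr2, and the largest ratio between fractions, that of Fpr1. Fpr1 (chromosome 17, 17876471 to 17883940, minus strand, GRCm38), which binds short formylated peptides with high affinity, had 53.9, 58.45 and 57.67 FPKM in the MHCII_hi libraries, against 4.72, 4.44 and 5.41 FPKM in the MHCII_lo libraries. The lowest MHCII_hi library stood far above the highest MHCII_lo library, and the spread within each group was small beside the gap. The ratio of means was 11.7, with a log2 fold change of 3.30 (SE 0.0661, limma adjusted p 7.60e-08), which ranked 15 among all tested genes.

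Fpr2 (chromosome 17, 17887824 to 17893952, plus strand) binds a wide range of peptides, including fragments of annexin A1 and cathelicidin. It had 123.81, 118.66 and 126.4 FPKM in the MHCII_hi libraries, against 16.61, 15.64 and 17.54 FPKM in the MHCII_lo libraries, and the groups did not overlap. Its mean was 7.41 times higher in MHCII_hi (log2 fold change 2.82, SE 0.0454, limma adjusted p 2.78e-08). Because Fpr1 differed by more than Fpr2, the balance of the pair shifted. The ratio of Fpr2 to Fpr1 was 2.03 to 2.30 in MHCII_hi and 3.24 to 3.52 in MHCII_lo, without overlap. On the log2(FPKM + 1) scale this ratio was lower in MHCII_hi by −0.48 (two-sided exact permutation p 0.1, the smallest that 3 against 3 libraries allow, and likewise 0.1 after adjustment over the 2 ratios examined).

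The 2 genes lie head to head, with 3884 bases between their starts, and Fpr2 has near copies that bear on its value. Of the 50-base windows of the Fpr2 coding sequence, 40.0% occur letter for letter in transcripts of Fpr3, Fpr1 or the predicted gene Gm5966, whereas 1 of 1046 windows of Fpr1 does. The coding sequences of Fpr2 and Fpr3 were 88.2% identical and those of Fpr2 and Fpr1 69.8% identical over aligned bases. The longest stretch that Fpr2 and Fpr3 share runs from coding base 217 to 310, and the sequences (GENCODE transcripts, chromosome 17) are shown because reads from it cannot be told apart, with the bases at which Fpr1 differs in capitals.
Fpr2: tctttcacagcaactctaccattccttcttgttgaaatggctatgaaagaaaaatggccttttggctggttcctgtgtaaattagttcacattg
Fpr3: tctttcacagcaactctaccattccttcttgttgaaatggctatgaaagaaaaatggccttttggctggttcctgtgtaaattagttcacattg
Fpr1: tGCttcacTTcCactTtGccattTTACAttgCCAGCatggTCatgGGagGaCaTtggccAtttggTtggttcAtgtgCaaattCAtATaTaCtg
Fpr1 differed from Fpr2 at 34 of these 94 bases. Fpr3 was listed at 0.09, 0.27 and 0.13 FPKM in MHCII_hi and at 0 in the MHCII_lo libraries, and Gm5966 at 1.06, 0.72 and 0.6 FPKM in MHCII_hi against 0.11, 0.22 and 0.01 FPKM in MHCII_lo. How the authors' quantification shared reads among these copies is not stated, so the value of Fpr2 is uncertain to that extent.

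Among the complement receptors, C5ar1 and C5ar2 were higher in MHCII_hi and C3ar1 was low in both fractions. C5ar1 (chromosome 7, 16246743 to 16259540, minus strand), the receptor through which C5a draws and primes phagocytes, had 46.34, 48.74 and 47.87 FPKM in the MHCII_hi libraries, against 4.5, 4.66 and 4.82 FPKM in the MHCII_lo libraries. Each group held within a narrow band, with coefficients of variation of 2.55% in MHCII_hi and 3.43% in MHCII_lo. The mean was 10.2 times higher in MHCII_hi, with a log2 fold change of 3.10 (SE 0.0369, limma adjusted p 7.55e-09).

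C5ar2 (chromosome 7, 16234585 to 16244154, minus strand), which binds C5a without coupling to G proteins and recruits arrestins, had 2.69, 2.18 and 2.38 FPKM in the MHCII_hi libraries, against 0.49, 0.58 and 0.34 FPKM in the MHCII_lo libraries. The groups did not overlap, but every MHCII_lo value lay under 1 FPKM. The log2 fold change was 1.22 (SE 0.10, limma adjusted p 6.07e-05) and the ratio of means 5.14. C5ar1 outnumbered C5ar2 by 17.2 to 22.4 times in MHCII_hi and by 8.03 to 14.2 times in MHCII_lo, so the ranges of this ratio did not overlap. The ratio was higher in MHCII_hi by 1.89 on the log2(FPKM + 1) scale and by 1.17 with a pseudocount of 0.1 (two-sided exact permutation p 0.1 in each case, the smallest possible). The genes are neighbours on the same strand, 2589 bases apart, and shared no 50-base window of coding sequence with any other annotated gene.

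C3ar1 (chromosome 6, 122847138 to 122856161, minus strand), the receptor for C3a, had 0.44, 0.54 and 0.39 FPKM in the MHCII_hi libraries, against 0.61, 0.43 and 0.31 FPKM in the MHCII_lo libraries. The ranges overlapped fully. When genes were not filtered on their level, its log2 fold change was 0.01 with a 95% interval of −0.22 to 0.24 (limma adjusted p 0.947). The interval leaves room for a difference in either direction. It is on the log2(FPKM + 1) scale, which makes changes at so low a level look smaller than they are in FPKM.

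**Figure D2:**
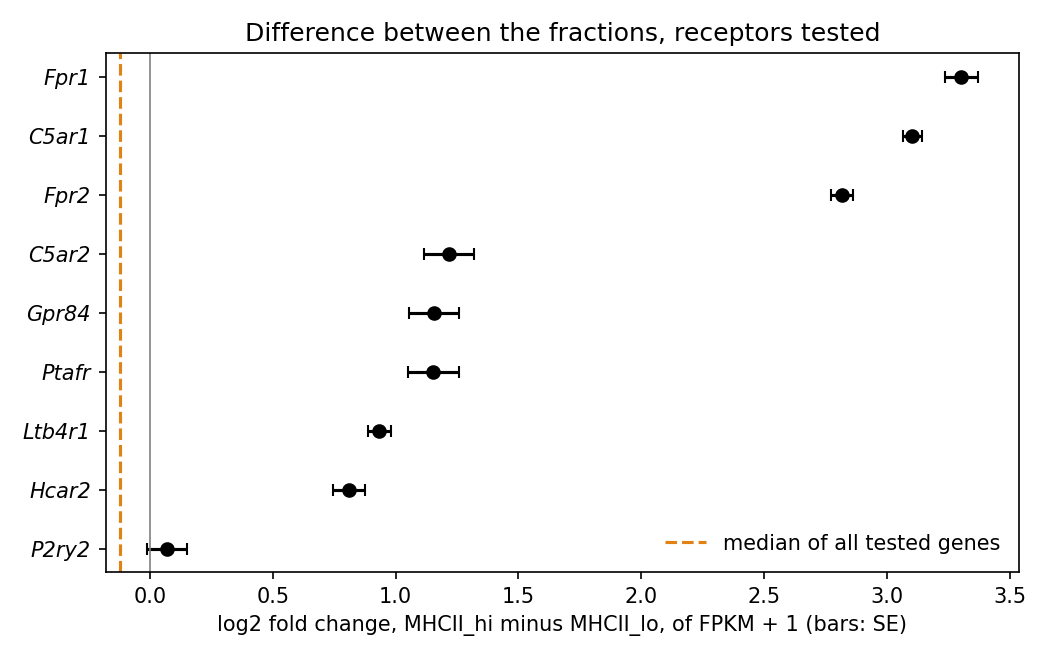
Log2 fold change of FPKM + 1, MHCII_hi minus MHCII_lo, with its SE from limma, for the 9 receptors tested (3 libraries a group), with the median of all tested genes as a dashed line. Fpr1, C5ar1 and Fpr2 lie at 2.82 to 3.30, a second cluster at 0.81 to 1.22, and P2ry2 near 0.

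The lipid mediator receptors were both higher in MHCII_hi but from unlike levels. Ltb4r1 (chromosome 14, 55765962 to 55768494, plus strand), the high-affinity leukotriene B4 receptor, had 69.73, 68.2 and 68.97 FPKM in the MHCII_hi libraries, against 37.6, 36.42 and 33.02 FPKM in the MHCII_lo libraries. It was the most abundant of the 10 receptors in MHCII_lo and the second in MHCII_hi. The groups did not overlap, and the mean was 1.93 times higher in MHCII_hi (log2 fold change 0.93, SE 0.0475, limma adjusted p 5.41e-06). Ltb4r2, the low-affinity receptor whose gene lies 824 bases away on the same strand without shared exons, did not exceed 0.3 FPKM in any library.

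Ptafr (chromosome 4, 132564067 to 132582683, plus strand), the receptor for platelet-activating factor, had 6.7, 6.36 and 7.64 FPKM in the MHCII_hi libraries, against 2.14, 2.53 and 3.02 FPKM in the MHCII_lo libraries. The lowest MHCII_hi library stood well above the highest MHCII_lo library. The ratio of means was 2.69 (log2 fold change 1.15, SE 0.104, limma adjusted p 9.40e-05).

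The metabolite and nucleotide receptors went separate ways. Hcar2 (chromosome 5, 123863570 to 123865499, minus strand), which senses nicotinic acid and the ketone body beta-hydroxybutyrate, had 33.72, 31.04 and 30.01 FPKM in the MHCII_hi libraries, against 16.32, 17.4 and 19.01 FPKM in the MHCII_lo libraries. It was second only to Ltb4r1 among the receptors in MHCII_lo, where its range overlapped that of Fpr2. The mean was 1.80 times higher in MHCII_hi, without overlap between groups (log2 fold change 0.81, SE 0.0645, limma adjusted p 5.16e-05).

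Gpr84 (chromosome 15, 103308235 to 103310612, minus strand), which responds to medium-chain fatty acids, had 5.86, 6.36 and 5.91 FPKM in the MHCII_hi libraries, against 2.67, 2.05 and 1.81 FPKM in the MHCII_lo libraries. The groups did not overlap, and the mean was 2.78 times higher in MHCII_hi (log2 fold change 1.16, SE 0.101, limma adjusted p 8.06e-05). An antisense gene, Gm49482, covers 39.5% of the exon bases of Gpr84, and 50% of the 50-base windows of its coding sequence lie in it. Gm49482 was not among the symbols of the tables, so it has no level of its own there. The strand setting of the quantification is not stated, so reads of this pair may not have been told apart.

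P2ry2 (chromosome 7, 100996568 to 101012866, minus strand), a receptor for ATP and UTP, had 2.31, 2.94 and 2.66 FPKM in the MHCII_hi libraries, against 2.31, 2.48 and 2.59 FPKM in the MHCII_lo libraries. The ranges overlapped, and the lowest library of each group had the same value. Its log2 fold change of 0.07 had a 95% interval of −0.12 to 0.26 (limma adjusted p 0.486), which leaves room for a small difference in either direction.

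The make-up of the receptor set therefore differed between the fractions. Fpr2 held 35.5 ± 0.840% of the summed receptor FPKM in MHCII_hi and 19.0 ± 0.957% in MHCII_lo, and Ltb4r1 held 19.9 ± 0.241% in MHCII_hi and 40.8 ± 2.80% in MHCII_lo (SD, n = 3 each). Fpr1 and C5ar1 took larger shares in MHCII_hi, at 16.4 ± 0.715% and 13.8 ± 0.395%, against 5.55 ± 0.540% and 5.33 ± 0.191% in MHCII_lo. Hcar2 took 9.12 ± 0.596% in MHCII_hi and 20.1 ± 1.54% in MHCII_lo. By level per length, the order in MHCII_hi was Fpr2, Ltb4r1, Fpr1, C5ar1, Hcar2, Ptafr, Gpr84, P2ry2, C5ar2 and C3ar1, and of these neighbours only Ptafr with Gpr84 and P2ry2 with C5ar2 had touching or overlapping ranges. In MHCII_lo the order was Ltb4r1, Hcar2, Fpr2, Fpr1, C5ar1, Ptafr, P2ry2, Gpr84, C5ar2 and C3ar1. There the ranges of Hcar2 and Fpr2, of Fpr1 and C5ar1, of Ptafr and P2ry2, of P2ry2 and Gpr84, and of C5ar2 and C3ar1 overlapped.

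**Figure D3:**
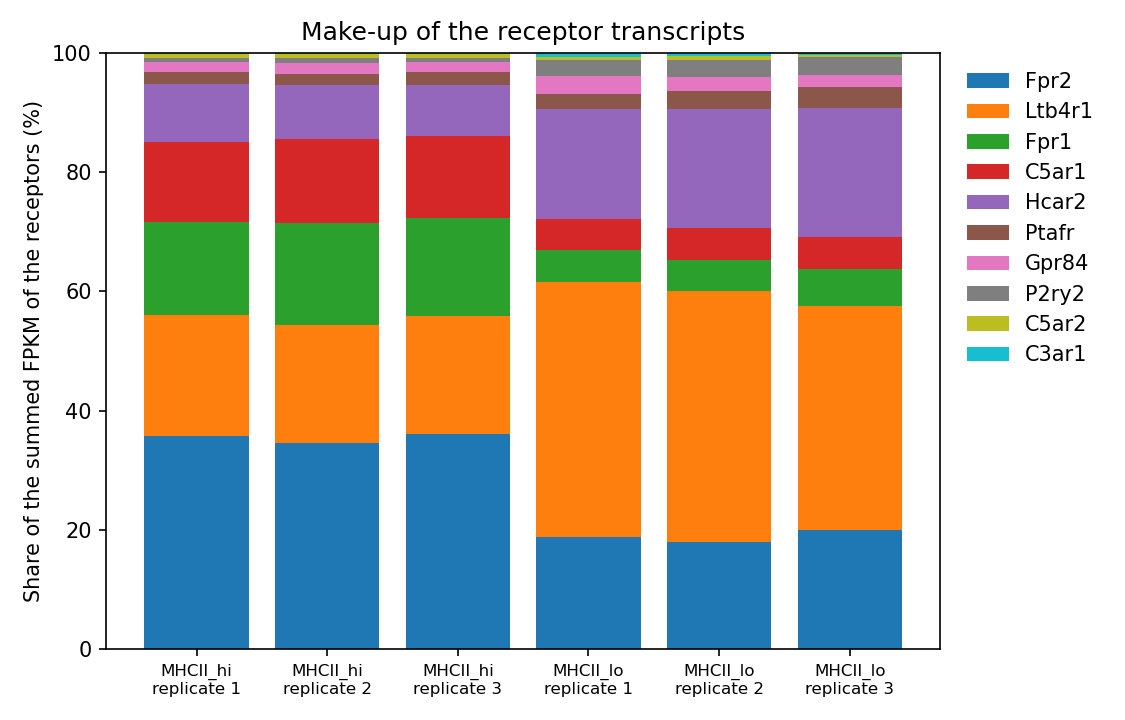
Share in percent of each receptor in the summed FPKM of the 10 receptors, in 1 stacked bar per library, with the MHCII_hi libraries at left and the MHCII_lo libraries at right. Fpr2, Fpr1 and C5ar1 take more of the bar in MHCII_hi, and Ltb4r1 and Hcar2 take more in MHCII_lo.

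Marker transcripts of neutrophils moved with the receptors. All 20 markers of the neutrophil list were called higher in MHCII_hi, with summed levels of 55419 to 56096 FPKM in MHCII_hi and 9418 to 9495 FPKM in MHCII_lo, a ratio of 5.90, and none was near 0 in either fraction (the lowest group mean was that of Stfa2 in MHCII_lo, at 2.67 FPKM). Set against this sum, the receptors differed among themselves. Per 1000 FPKM of neutrophil markers, Fpr1 stood at 0.961 to 1.05 FPKM in MHCII_hi and 0.468 to 0.574 FPKM in MHCII_lo, and C5ar1 at 0.826 to 0.879 FPKM in MHCII_hi and 0.478 to 0.512 FPKM in MHCII_lo. Fpr2 stood at 2.14 to 2.27 FPKM in MHCII_hi and 1.65 to 1.86 FPKM in MHCII_lo on the same scale. For these 3 receptors the ranges did not overlap. The sum is mostly S100a9 and S100a8, and single markers differed by 3.34 (Chil3) to 72.1 times (Stfa2), so that the ratios of Fpr1, C5ar1 and Fpr2 lay within the markers' own spread. Ltb4r1 stood at 1.23 to 1.24 FPKM in MHCII_hi and 3.51 to 3.99 FPKM in MHCII_lo per 1000 FPKM of the markers, and Hcar2, Ptafr, Gpr84, P2ry2 and C3ar1 were lower per marker FPKM in MHCII_hi as well. C5ar2, at 0.0393 to 0.0480 FPKM in MHCII_hi and 0.0361 to 0.0611 FPKM in MHCII_lo, overlapped. The part of neutrophil transcripts in the receptor differences was not tested.

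Markers of the other cell types that carry these receptors mostly went the other way or were low. The 14 monocyte and macrophage markers summed to 582 to 610 FPKM in MHCII_hi and 979 to 1004 FPKM in MHCII_lo, and of the 10 tested 8 were lower and 1 higher. In that list C1qa, C1qb and C1qc stayed under 1 FPKM in every library and were not tested, but their means were above those of MHCII_lo, at 0.620, 0.490 and 0.577 FPKM in MHCII_hi and 0.0667, 0.160 and 0.0600 FPKM in MHCII_lo. The ranges of C1qb overlapped, and those of C1qa and C1qc did not. Eosinophil markers summed to 1734 to 1755 FPKM in MHCII_hi and 4116 to 4186 FPKM in MHCII_lo, with 4 of 6 tested lower and 1 higher. Basophil and mast cell markers summed to 367 to 378 FPKM in MHCII_hi and 830 to 857 FPKM in MHCII_lo, with 5 of 6 tested lower, and Tpsb2 was listed at 0 in the MHCII_lo libraries. Dendritic cell markers summed to 160 to 165 FPKM in MHCII_hi and 303 to 310 FPKM in MHCII_lo, and all 7 tested were lower. Beside 20.4% higher and 40.6% lower over all tested genes, lists for B and plasma cells (3 of 5 tested higher), T and NK cells (2 of 5 lower), erythroid cells (all 6 lower), megakaryocytes (2 of 4 higher, 1 lower) and stem cells (3 of 5 higher) summed to at most 269 FPKM in any library.

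**Figure D4:**
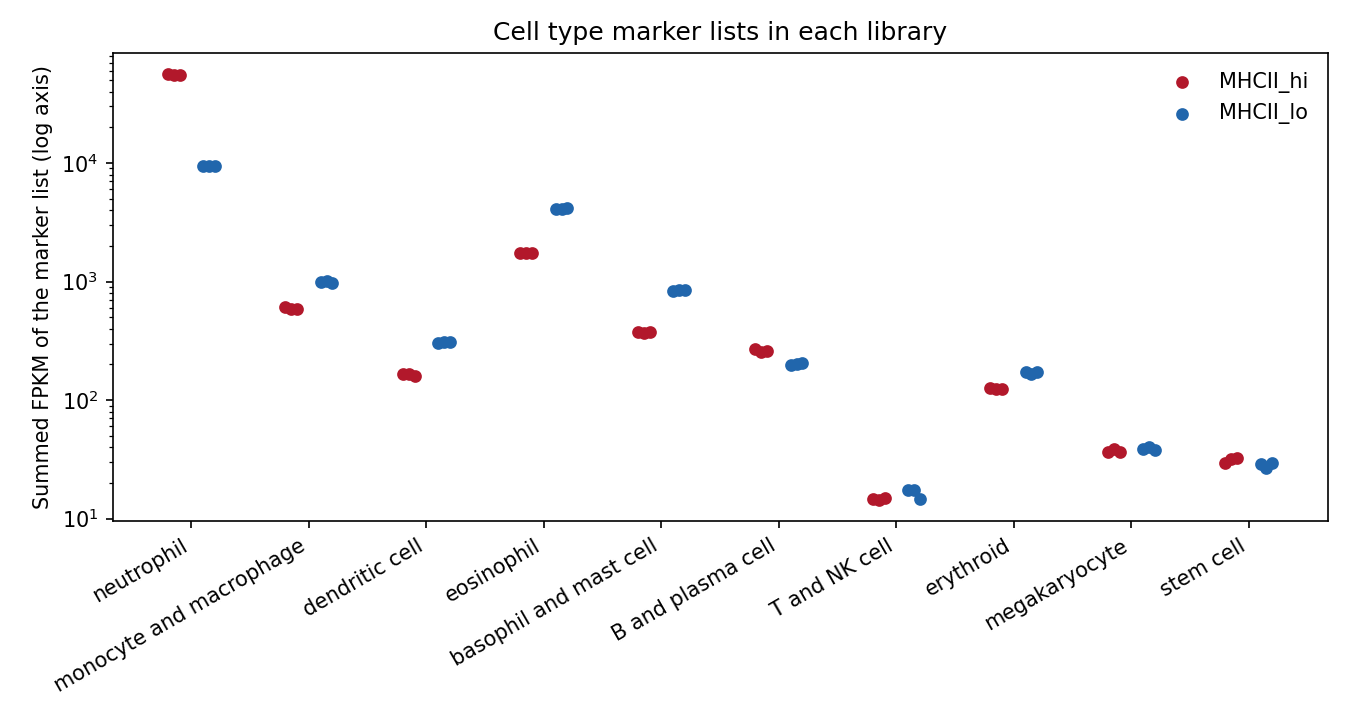
Summed FPKM (log axis) of each list of cell type markers in the 3 MHCII_hi libraries (red, left) and the 3 MHCII_lo libraries (blue, right). Neutrophil markers and, by less, B and plasma cell markers are higher in MHCII_hi, and monocyte, dendritic, eosinophil, basophil and erythroid markers are higher in MHCII_lo. T and NK cell, megakaryocyte and stem cell markers overlap.

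Other receptors of the same families did not move as a group. Of 43 related receptors, 39 were found, 22 could be tested, and 6 were higher and 10 lower in MHCII_hi, beside 20.4% higher and 40.6% lower over all tested genes. The median log2 fold change was −0.09, beside −0.12 over all tested genes. The balance depended on the scaling, with 8 higher and 7 lower after median-ratio scaling, with a total without neutrophil markers and without the filter on low values. Of the called receptors, P2ry13 and P2ry12 reached the limit for testing only through MHCII_hi. Lpar5, S1pr3, Gpr34 and Cysltr1 reached it only through MHCII_lo. All of these receptors had to differ to be tested. P2ry13, an ADP receptor of myeloid cells, averaged 6.40 ± 0.621 FPKM in MHCII_hi and 0.767 ± 0.0681 FPKM in MHCII_lo (log2 fold change 2.06, limma adjusted p 1.29e-06). Its neighbour in function P2ry12, the platelet ADP receptor, averaged 2.68 ± 0.110 FPKM in MHCII_hi and 0.817 ± 0.133 FPKM in MHCII_lo (n = 3 each, limma adjusted p 5.07e-05). The sphingosine 1-phosphate receptors S1pr4 and S1pr1 were also higher, at 14.4 ± 0.512 and 3.19 ± 0.161 FPKM in MHCII_hi, against 9.57 ± 0.666 and 1.87 ± 0.331 FPKM in MHCII_lo. Lower in MHCII_hi were Gpr183, which senses oxysterols, at 3.13 ± 0.0700 FPKM in MHCII_hi, against 6.64 ± 0.465 FPKM in MHCII_lo, and the chemerin-binding receptor Ccrl2, at 7.47 ± 0.260 FPKM in MHCII_hi, against 12.9 ± 0.800 FPKM in MHCII_lo. The lysophosphatidic acid receptor Lpar5, at 0.810 ± 0.208 FPKM in MHCII_hi and 2.92 ± 0.563 FPKM in MHCII_lo, and Gpr35, at 2.47 ± 0.0850 FPKM in MHCII_hi and 3.48 ± 0.136 FPKM in MHCII_lo, were lower as well. The sum of the whole list overlapped between fractions, at 84.7 to 87.5 FPKM in MHCII_hi and 85.7 to 88.8 FPKM in MHCII_lo.

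Of the genes that make ligands of the receptors, 7 of 11 tested were higher and 2 lower (16 listed, median log2 fold change 0.15), beside 20.4% and 40.6% over all tested genes, a difference that was not tested. Anxa1, whose peptides act on formyl peptide receptors, averaged 690 ± 6.90 FPKM in MHCII_hi and 172 ± 2.84 FPKM in MHCII_lo (ratio of means 4.01, limma adjusted p 2.39e-09). Camp, the cathelicidin precursor and also a member of the neutrophil list, averaged 1521 ± 21.8 FPKM in MHCII_hi and 404 ± 9.39 FPKM in MHCII_lo. Genes of leukotriene synthesis differed by unlike amounts. Alox5, which starts leukotriene synthesis, averaged 44.6 ± 1.96 FPKM in MHCII_hi and 12.8 ± 0.510 FPKM in MHCII_lo, and its activating protein Alox5ap 512 ± 7.58 FPKM in MHCII_hi and 212 ± 4.03 FPKM in MHCII_lo. Lta4h, which makes leukotriene B4 itself, was higher by a ratio of means of only 1.10, and Pla2g4a, the phospholipase that frees arachidonic acid, was not called (limma adjusted p 0.0621). Cfp, properdin, which stabilises the complement convertase, was lower, at 47.7 ± 0.329 FPKM in MHCII_hi and 60.4 ± 0.940 FPKM in MHCII_lo. Of the lysophospholipid acyltransferases, Lpcat2, which can make platelet-activating factor, averaged 24.5 ± 0.924 FPKM in MHCII_hi and 7.83 ± 0.769 FPKM in MHCII_lo (log2 fold change 1.53, limma adjusted p 2.46e-06). Lpcat1 was lower in MHCII_hi by −0.14 on the log2 scale (limma adjusted p 0.0167), a call that was lost under 3 other scalings (adjusted p 0.0757 to 0.762), without MHCII_hi replicate 3 (0.0551) and without MHCII_lo replicate 3 (0.0539), leaving 1 lower gene in the list.

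Of the genes that break down these ligands, 3 of 5 tested were higher and 1 lower (9 listed, median log2 fold change 0.80). With 20.4% higher and 40.6% lower over all tested genes, so short a list says little, and the difference was not tested. Pla2g7, which inactivates platelet-activating factor, averaged 28.8 ± 1.15 FPKM in MHCII_hi and 7.34 ± 0.786 FPKM in MHCII_lo (log2 fold change 1.84, limma adjusted p 1.46e-06). Entpd1, which removes extracellular ATP, averaged 8.82 ± 0.285 FPKM in MHCII_hi and 3.45 ± 0.156 FPKM in MHCII_lo, and Cyp4f18, which hydroxylates leukotriene B4, 64.5 ± 1.60 FPKM in MHCII_hi and 36.6 ± 1.28 FPKM in MHCII_lo. Ptgr1, which oxidises leukotriene B4 at another position, went down, to 33.5 ± 1.64 FPKM in MHCII_hi, against 43.0 ± 0.862 FPKM in MHCII_lo. Genes for making leukotrienes and a gene for breaking them down were thereby both called higher in MHCII_hi.

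Downstream of the receptors, 12 of 23 tested signalling genes were higher and 6 lower (24 listed, median log2 fold change 0.15). The shares over all tested genes were 20.4% higher and 40.6% lower, and the departure of this list from them was not tested. Fgr, a Src family kinase that acts in phagocyte responses to chemoattractants, showed the smallest p among the signalling genes. It averaged 60.7 ± 0.930 FPKM in MHCII_hi and 14.5 ± 0.490 FPKM in MHCII_lo (ratio of means 4.19, limma adjusted p 2.85e-08). Rac2, the Rac GTPase of blood cells, averaged 252 ± 5.22 FPKM in MHCII_hi and 152 ± 3.03 FPKM in MHCII_lo, and Gnai3, an inhibitory G protein alpha subunit, 109 ± 2.18 FPKM in MHCII_hi and 84.5 ± 1.72 FPKM in MHCII_lo. Among the lower genes were Gng2, Rac1, Gna15 and Pik3r6, at log2 fold changes of −0.27, −0.16, −0.43 and −0.38. The call for Rac1 was lost after median-ratio scaling (adjusted p 0.182) and when the total left out neutrophil markers (adjusted p 0.402), and 3 genes of this list were lower under either scaling. Among genes that switch receptors off, 7 of 11 tested were higher and 2 lower (12 listed, median 0.19). Their difference from the 20.4% and 40.6% over all tested genes was not tested either. Under the alternative settings, 6 to 8 of the switch-off genes were higher and 2 to 3 lower. Arrb2, beta-arrestin 2, averaged 103 ± 0.817 FPKM in MHCII_hi and 42.0 ± 0.396 FPKM in MHCII_lo (log2 fold change 1.27, limma adjusted p 3.00e-08). The G protein regulators Rgs19 and Rgs18 were higher by 0.48 and 0.37 on the log2 scale. Of the receptor kinases, Grk2 and Grk6 were higher, with log2 fold changes of 0.19 and 0.30, and Grk3 and Grk5 were lower, at −0.67 and −0.64.

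**Figure D5:**
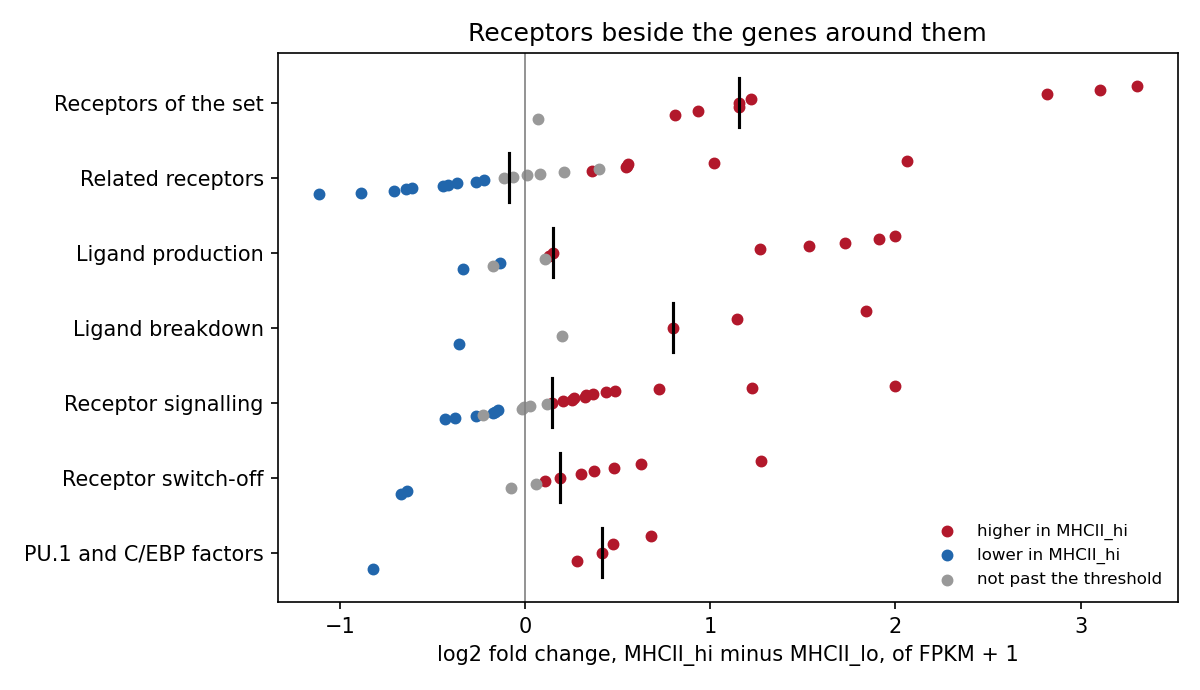
Log2 fold change of FPKM + 1, MHCII_hi minus MHCII_lo, of each tested gene (points, red where called higher, blue where called lower and grey where not called, spread vertically for sight only) in the receptor set and in lists of related receptors, ligand production, ligand breakdown, signalling, switch-off and transcription factors, with a black line at each list's median. The receptor set has its median at 1.16, and the related receptors have theirs at −0.09.

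Sequences before annotated starts were examined for letters that could be read beside these levels. RefSeq promoter windows (GRCm38.p6) were found for 9 of the 10 receptors, as 11 windows set by RefSeq starts. Several of these starts lie inside the GENCODE gene spans given above: the windows of P2ry2 and the second window of C5ar2 lie wholly within the gene, most of the window of C5ar1 does, and 174 of the 250 bases of the Gpr84 window are annotated exon. The 250 bases before each RefSeq start were searched on both strands for GAGGAAG, a core that PU.1 and other ETS factors bind, for TTGCNNAA, a C/EBP half-palindrome, and for TATAAA, the letters of a TATA box at any position, and no matches of different motifs overlapped. Over all 32851 windows, 10.6% held the PU.1 core, 9.56% the C/EBP letters and 12.4% the TATA letters. Among the receptors the PU.1 core was found for C5ar2 (in a second window, 26 bases before that start) and Ltb4r1, the C/EBP letters for C5ar2 (first window) and P2ry2, and the TATA letters for Fpr1, Fpr2 and C3ar1. The windows of C5ar1, Ptafr and Gpr84 held none of the 3. Bases 250 to 51 before the RefSeq start are shown, 5′ to 3′ on the gene's strand and with matches in capitals, for the divergent pair Fpr1 and Fpr2, for the first window of C5ar2 with its C/EBP letters, for Ltb4r1 with its PU.1 letters, and for P2ry2, which was not called.
Fpr1 (chr17:17883990-17884189, minus): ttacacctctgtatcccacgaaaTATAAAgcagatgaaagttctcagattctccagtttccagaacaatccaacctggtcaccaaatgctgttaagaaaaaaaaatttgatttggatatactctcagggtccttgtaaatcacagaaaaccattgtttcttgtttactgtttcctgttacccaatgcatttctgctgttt
Fpr2 (chr17:17887574-17887773, plus): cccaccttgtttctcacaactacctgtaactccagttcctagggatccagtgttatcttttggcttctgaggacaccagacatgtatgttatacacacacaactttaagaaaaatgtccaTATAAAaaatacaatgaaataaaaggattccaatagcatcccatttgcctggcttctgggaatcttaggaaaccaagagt
C5ar2 (chr7:16244205-16244404, minus): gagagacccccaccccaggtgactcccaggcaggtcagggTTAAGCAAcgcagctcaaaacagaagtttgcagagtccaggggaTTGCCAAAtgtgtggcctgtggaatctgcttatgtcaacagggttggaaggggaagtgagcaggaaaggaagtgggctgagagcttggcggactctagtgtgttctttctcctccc
Ltb4r1 (chr14:55765712-55765911, plus): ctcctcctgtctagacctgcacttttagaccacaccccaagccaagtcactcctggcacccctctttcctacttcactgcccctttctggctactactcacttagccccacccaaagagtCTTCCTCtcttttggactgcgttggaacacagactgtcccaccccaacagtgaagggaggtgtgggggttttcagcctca
P2ry2 (chr7:101012104-101012303, minus): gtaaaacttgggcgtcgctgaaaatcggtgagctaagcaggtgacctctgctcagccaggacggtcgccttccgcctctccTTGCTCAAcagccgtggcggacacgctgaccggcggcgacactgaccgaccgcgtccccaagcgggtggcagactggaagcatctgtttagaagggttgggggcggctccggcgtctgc
The TATA letters stood 227 bases before the start of Fpr1, 130 before that of Fpr2 and 235 before that of C3ar1. Whether any of them acts as a TATA box was not tested. The C/EBP letters of C5ar2 began 210 and 166 bases before its start, and those of P2ry2 169 bases before an internal RefSeq start. The PU.1 letters of Ltb4r1 stood on the opposite strand, 130 bases before its start.

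Transcripts of the factors named by these motifs were measured in the same libraries. Spi1, which encodes PU.1, averaged 84.3 ± 1.43 FPKM in MHCII_hi and 60.5 ± 2.45 FPKM in MHCII_lo (log2 fold change 0.47, limma adjusted p 2.90e-05). Cebpe, the C/EBP factor of late granulocyte maturation, averaged 55.3 ± 2.55 FPKM in MHCII_hi and 34.2 ± 0.983 FPKM in MHCII_lo, and Cebpd and Cebpb were higher by 0.42 and 0.28 on the log2 scale. Cebpa, which acts at the entry into the granulocyte and monocyte lineages, was lower, at 26.4 ± 1.57 FPKM in MHCII_hi and 47.4 ± 1.40 FPKM in MHCII_lo (log2 fold change −0.82, limma adjusted p 9.80e-06).

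For each tested receptor the most similar genes were sought by the Euclidean distance between mean-centred log2(FPKM + 1) profiles over the 6 libraries, a measure in which the gap between the fractions weighs most. The nearest to Fpr1 were Mmp8, a neutrophil collagenase, Ceacam10 and Ighg3, at distances of 0.228 to 0.283. Those of Fpr2 were Mmp25, a neutrophil membrane protease, the immunoglobulin gene Ighv10-3 and Trem1, a myeloid activating receptor, at 0.0845 to 0.155. For C5ar1 they were Lcn2, a secondary granule protein, the decoy receptor Il1r2 and Ifitm6, at 0.101 to 0.134. Ltb4r1 lay closest to Csf2rb2, a signalling chain of cytokine receptors, Ttc39b and Cpne3, and Ampd2 and Cramp1l were among those nearest to P2ry2. C5ar2 was nearest to Rtp4, Panct2 and Sipa1l2, Ptafr to C4b, Tgm1 and Tmem40, Gpr84 to Gca, Fosl1 and Pdlim7, and Hcar2 to Ddx58, Agpat2 and Spata13.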

How the data were processed

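RNA was sequenced from 3 MHCII_hi and 3 MHCII_lo libraries, with groups and replicate numbers from the labels. HISAT2, StringTie and fastp (no versions) and the build GRCm38 (mm10) are named in the submitters' processing notes, and the library kit was a stranded one, per the labels' protocols. The authors deposited 1 table of 30803 rows per library. The unit of these deposited values, FPKM, was inferred from 2 decimals, unequal sums and StringTie's output. FPKM are relative to the library, so abundant transcripts lower all others. Low values of genes with a single exon (600 to 4000 bases) showed no step worth 1 fragment (mean cosine 0.0706 to 0.0934). Depth is therefore unknown, and counting intervals could not be computed.

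Repeated symbols (70 rows) were reduced to the row with the highest mean. The 12037 genes averaging 1 FPKM or more were compared as log2(FPKM + 1) by limma 3.58.1 (R 4.3.3), modelling group alone with a mean-variance trend, and p-values were adjusted by Benjamini-Hochberg over all of them, with calls at 0.05. The fit was tested on simulated data. Ratios of receptor pairs had an exact permutation test. Named genes were the 10 receptors, the 4 sort check genes, up to 4 called genes with the smallest p in each direction of each pathway list, and the 3 nearest genes to each tested receptor. Some genes that this rule names are not reported here. Ltb4r2, Fpr3 and Gm5966 were added for their bearing on read assignment, and Grk6, Lpcat2, Lta4h, Pla2g4a and the single markers named were chosen after their values were seen. The receptors and the 17 lists (210 entries, of which 5 were not found) were chosen with earlier results of these data known. Positions and transcripts are from GENCODE M21 and promoters from RefSeq. Other steps used scipy 1.17.1, numpy 2.4.6 and pandas 2.3.3 under Python 3.11.15. Alternatives were 2 pseudocounts, no filter, 3 scalings, no trend, a replicate block and leaving out each library.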

Additional observations from a re-analysis of the deposited data

How the results depend on the processing

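The counts of receptors called higher (8) and lower (none of the 9 tested had a negative log2 fold change) were the same under all 14 alternatives. Each of the 8 kept an adjusted p under 0.05, and the largest was 0.000974, for Hcar2. P2ry2 was not called under any of them (log2 fold change 0.01 to 0.17, adjusted p 0.127 to 0.929). Median-ratio scaling, quantile normalization and a total without neutrophil markers moved the median of all tested genes from −0.12 to −0.02, −0.07 and −0.01, and the share of calls that were higher from 33.4% to 49.8%, 41.2% and 52.8%. Under median-ratio scaling and the total without neutrophil markers, 3 signalling genes were lower in place of 6, and under all 3 scalings 1 ligand production gene was lower in place of 2. Leaving out single libraries gave 1 to 2 lower ligand production genes, with 1 without MHCII_hi replicate 3 or MHCII_lo replicate 3, where Lpcat1 lost its call (adjusted p 0.0551 and 0.0539). With a pseudocount of 0.1 the difference in the log2 ratio was −0.64 for Fpr2 to Fpr1 and 1.17 for C5ar1 to C5ar2. Deviations of same-numbered libraries from their group means correlated at −0.0533, −0.0455 and −0.0434, so no shared variation by replicate number was visible. Whether the libraries were paired by mouse or batch cannot be told from this. Fitted with a replicate block, 2305 genes were higher and 4659 lower, against 2450 and 4883 without it, and 8 receptors were higher. Unknown depth limits what can be said of C3ar1 and of C5ar2 in MHCII_lo, both under 1 FPKM.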
